A study of Mus musculus with 33 samples.

Results

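Collagens are the triple-helical proteins of the extracellular matrix, and 44 collagen genes were followed here in epithelial cells sorted from mouse mammary tumors and tumor-free mammary glands. The members were the protein-coding rows of the count table whose symbol has the form of Col, a number, the letter a and a number, and that held at least 10 reads summed over the 33 libraries. All 44 rows with such a symbol passed this minimum, out of 55487 gene rows in the table, of which 36527 passed it. They were separated into 11 fibrillar collagens, 8 basement membrane collagens and 25 others.

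Fibrillar collagens (types I, II, III, V, XI, XXIV and XXVII) assemble into the banded fibers of connective tissue and are made in the main by fibroblasts and other mesenchymal cells. Basement membrane collagens are the type IV chains, which form the sheet under epithelia as heterotrimers, and the multiplexins Col15a1 and Col18a1, which sit in or beside that sheet. The remaining collagens include the FACIT group, which decorates fibrils, the beaded-filament chains of type VI, the short-chain network collagens VIII and X, the anchoring fibril collagen VII and the transmembrane collagens. In the mammary gland the basal, or myoepithelial, cells contact the basement membrane and secrete much of it.

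Each library came from one mouse of the FVB background that carried MMTV-Cre, which drives recombination from a mammary tumor virus promoter active in mammary epithelium, and a ROSA mTmG reporter, in which cells that have seen Cre turn from red to green. Tumor mice also carried MMTV-PyMT, a transgene for the polyoma virus middle T oncoprotein, and gland mice did not. WT mice were Pthrp wt/wt;Cre+ and KO mice were Pthrp flox/flox;Cre+, so that Cre removes part of Pthlh, the gene of parathyroid hormone-related protein (PTHrP). There were 10 WT tumors (3 each at weeks 6, 8 and 10 and 1 at week 12), 9 KO tumors (3 each at weeks 8, 10 and 12), 8 WT glands (2 each at weeks 6, 8, 10 and 12) and 6 KO glands (2 each at weeks 8, 10 and 12). The tissue was digested with collagenase and dispase, and the cells were cultured for days in serum-containing medium. GFP+ cells were then sorted and RNA was taken, so the values are of the sorted cells after those steps and not of the intact tissue.

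Total counts ran from 28419983 to 130981596 reads per library, with a median of 46351179. The ribosomal RNA share had a median of 0.0116% in WT glands, 0.0499% in WT tumors, 6.20% in KO glands and 0.952% in KO tumors, so it moved with genotype. Pthlh lay between 1.47 and 6.67 CPM (read counts scaled to the library total after TMM normalization) in WT tumors and between 1.35 and 2.29 CPM in KO tumors, and between 2.93 and 7.73 CPM in WT glands and 2.79 and 8.52 CPM in KO glands, but counts over the whole gene also cover what lies outside the deleted part and do not check the labels. The summed level of 10 basal cell markers had medians of 9801 CPM in WT glands, 10692 CPM in KO glands, 2547 CPM in WT tumors and 2513 CPM in KO tumors, and all 10 were lower in tumors in each genotype by the test described below, where 9.53% of all genes were lower in WT mice and 5.44% in KO mice. Its part in the collagen differences was not tested, and in bulk RNA fewer cells of a type and less RNA per cell cannot be told apart. The summed level of 10 fibroblast markers was low, from 7.39 to 54.0 CPM in all but 2 libraries, and adipocyte, endothelial and macrophage sums never passed 53.8 CPM. The exceptions were WT gland week 6 replicate 2 at 72.6 CPM and WT gland week 8 replicate 2 at 167 CPM, and these 2 together with KO gland week 12 replicate 1, at 54.0 CPM, are the 3 glands above 50 CPM that are left out of some fits below. In the KO gland Thy1, which other cell types also express, gave 30.5 of the 54.0 CPM, Dpt was at 0, and Lum, Fap, Pi16 and Mfap5 lay between 0.0277 and 0.111 CPM, so its sum rested on Thy1, with Pdgfra at 10.7 and Pdgfrb at 9.56 CPM.

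The 6 type IV genes sit in the genome as 3 pairs whose starts face each other, and the pairs are named here because the members of a pair moved together. In Gencode M21 (GRCm38), Col4a1 and Col4a2 overlap by 22 bases at their starts on chromosome 8, Col4a4 and Col4a3 start 71 bases apart on chromosome 1, and Col4a6 and Col4a5 start 1308 bases apart on the X chromosome. The intergenic stretches before Col4a4, Col4a5 and Col4a6 are shown 5′ to 3′ on the strand of the named gene (RefSeq promoters, GRCm38.p6), free of annotated exons. They lie at chr1:82586850-82586920 (− strand, the whole gap to Col4a3), chrX:141475169-141475384 (+ strand) and chrX:141474077-141474326 (− strand). Capitals mark CCAAT or GGGCGG, read on either strand, so that GGGCGG on the other strand appears as CCGCCC.
Col4a4: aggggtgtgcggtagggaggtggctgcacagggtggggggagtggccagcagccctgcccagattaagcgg
Col4a5: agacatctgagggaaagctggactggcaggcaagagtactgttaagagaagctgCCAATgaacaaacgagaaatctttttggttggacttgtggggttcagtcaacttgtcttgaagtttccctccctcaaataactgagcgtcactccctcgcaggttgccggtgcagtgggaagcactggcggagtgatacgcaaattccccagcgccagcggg
Col4a6: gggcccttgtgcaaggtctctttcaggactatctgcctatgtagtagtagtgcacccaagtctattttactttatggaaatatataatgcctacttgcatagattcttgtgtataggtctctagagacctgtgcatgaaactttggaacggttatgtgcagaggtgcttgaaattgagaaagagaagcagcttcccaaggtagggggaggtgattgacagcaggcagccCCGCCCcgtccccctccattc

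Outside type IV, no tumor overlapped a gland of its genotype for Col17a1 and Col7a1, lower in tumors, and Col9a1, higher in tumors, and their upstream stretches follow with that of Col5a3, whose level was high in most WT glands. Col17a1 lies at chr19:47692095-47692292 (− strand), Col7a1 at chr9:108953336-108953585 (+ strand), the first start site of Col9a1 at chr1:24177360-24177609 (+ strand) and Col5a3 at chr9:20815068-20815317 (− strand). Each stretch lies upstream of its gene with no annotated exon in it. Capitals mark the same motifs as above and TATAAA, on either strand.
Col17a1: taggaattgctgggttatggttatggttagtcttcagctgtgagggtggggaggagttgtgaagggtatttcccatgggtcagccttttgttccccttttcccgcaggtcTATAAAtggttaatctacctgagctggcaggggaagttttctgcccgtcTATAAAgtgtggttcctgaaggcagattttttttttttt
Col7a1: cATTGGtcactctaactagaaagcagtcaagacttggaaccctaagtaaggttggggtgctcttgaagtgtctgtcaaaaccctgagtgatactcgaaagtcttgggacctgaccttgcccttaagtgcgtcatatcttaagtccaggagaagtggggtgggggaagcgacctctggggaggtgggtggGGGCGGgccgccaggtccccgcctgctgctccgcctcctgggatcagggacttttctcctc
Col9a1: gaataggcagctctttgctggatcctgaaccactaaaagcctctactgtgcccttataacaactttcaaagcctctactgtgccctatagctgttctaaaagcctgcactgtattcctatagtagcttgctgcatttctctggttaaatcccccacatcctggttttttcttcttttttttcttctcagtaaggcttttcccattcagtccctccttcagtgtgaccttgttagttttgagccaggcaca
Col5a3: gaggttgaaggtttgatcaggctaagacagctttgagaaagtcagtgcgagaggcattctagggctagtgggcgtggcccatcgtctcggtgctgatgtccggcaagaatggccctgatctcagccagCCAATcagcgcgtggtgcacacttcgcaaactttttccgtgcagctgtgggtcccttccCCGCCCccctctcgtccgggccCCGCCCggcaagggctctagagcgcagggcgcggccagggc

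Motifs were counted in the 250 bases before each start, over the 38 promoter rows that matched 35 of the 44 collagens. GGGCGG, the letters of a GC box, occurred in 22, or 57.9%, against 32.7% of all 32851 promoters in the RefSeq table. CCAAT occurred in 34.2% against 33.8% and TATAAA in 13.2% against 12.4%. TGANTCA, the letters of an AP-1 element, occurred in 2.63% against 6.75%. These are matches of letters on both strands and not sites of binding.

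A few genes held most of the collagen reads. Col12a1, Col7a1, Col4a1, Col17a1, Col18a1 and Col4a2 made up 77.1% of the collagen CPM summed over libraries, 9 collagens had a mean above 100 CPM and 11 a mean under 1 CPM. Per kilobase of annotated exon, the mean level over all libraries was highest for Col17a1 (63.6 CPM per kb), followed by Col4a1 (61.0), Col7a1 (55.6), Col18a1 (51.3), Col12a1 (38.1) and Col4a2 (32.2). The first 3 of these genes differ by less than the spread between libraries of any one of them, and the order was not that of each tissue. By median, Col4a1 (128.5 CPM per kb) and Col17a1 (126) led in WT glands and Col17a1 (136) and Col4a1 (121.5) in KO glands. In tumors Col7a1 (35.0 in WT and 35.7 in KO tumors), Col18a1 (33.3 and 36.9) and Col12a1 (27.98 and 32.9) stood above Col17a1 (18.8 and 17.9) and Col4a1 (10.35 and 18.4). Reads of the 44 genes had medians of 0.570% of all counts in WT glands, 0.445% in KO glands, 0.199% in WT tumors and 0.199% in KO tumors. WT glands ranged from 0.350% to 0.843% and WT tumors from 0.134% to 0.327%, so these ranges did not overlap, while KO glands (0.170% to 0.626%) and KO tumors (0.143% to 0.299%) overlapped.

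More collagens were lower than higher in tumors than in glands, in both genotypes. A gene was called where edgeR's quasi-likelihood test gave a fold above 1.5 and an adjusted p below 0.1 over all 36527 genes. Col5a3 was chosen for its pattern and stands outside all counts of collagens called or not overlapping, which leaves 43 collagens. Averaged over weeks 6, 8 and 10 in WT mice, 25 of 43 collagens were called lower in tumors and 4 higher, where 9.53% of all genes were called lower, 6.21% higher and 15.7% in either direction. The median log2 fold change was −1.43 for the 43 collagens and 0.03 for all genes. Averaged over weeks 8, 10 and 12 in KO mice, 15 were called lower and 5 higher, against 5.44% and 5.16% of all genes (10.6% in either direction), and the median change was −0.31 for the collagens and 0.09 for all genes. All 15 collagens called lower in KO mice were among the 25 called lower in WT mice, and 4 of the 5 called higher were shared, the exception being the low-level fibrillar chain Col24a1. The 2 comparisons use different mice. With the 3 glands above 50 CPM of fibroblast markers left out there were 18 lower and 7 higher in WT mice and 11 lower and 9 higher in KO mice, where those fits called 6.25% of all genes lower and 5.61% higher in WT mice, and 4.17% lower and 5.77% higher in KO mice. Of these collagens 22 of 25 and 16 of 20 were also called with all libraries. With all libraries and over all genes, the 2782 calls shared by the genotypes made up 48.4% of the WT list and 71.8% of the KO list, against 65.5% and 95% for collagens. Basement membrane collagens were all called in both genotypes, 6 lower and 2 higher. Of the 10 fibrillar collagens counted, 7 were called lower in WT mice and none higher, and 2 were called lower and 1 higher in KO mice. Of the 25 others, 12 were lower and 2 higher in WT mice, with 7 lower and 2 higher in KO mice.

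**Figure D1:**
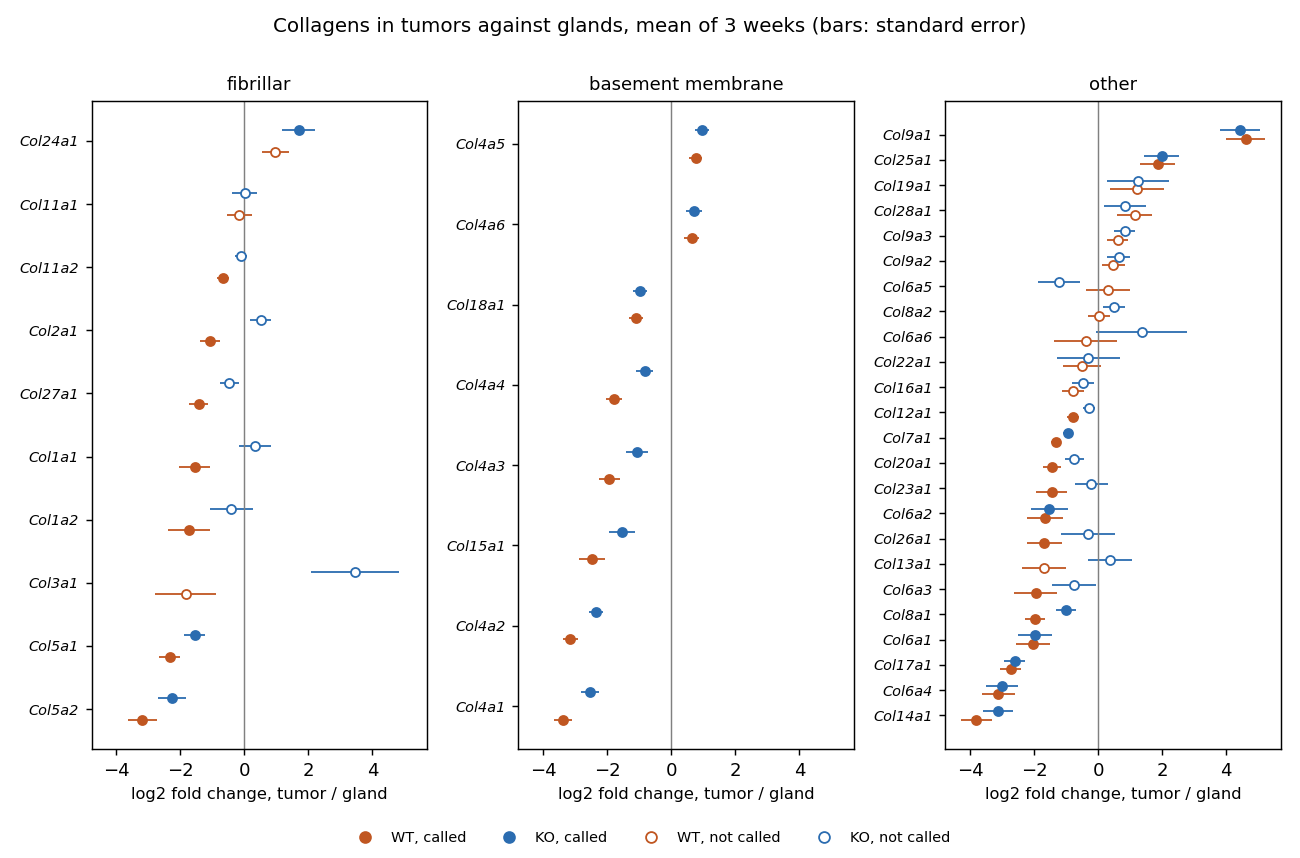
Log2 fold change of tumor over gland for each collagen, averaged over weeks 6, 8 and 10 in WT mice (orange) and weeks 8, 10 and 12 in KO mice (blue), with bars of 1 standard error, grouped by class, and filled where called. Col5a3, chosen for its pattern, and Col10a1, whose error could not be estimated in KO mice, are left out; Col4a5, Col4a6, Col9a1 and Col25a1 are the filled points above 0 in both genotypes.

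The type IV chains split by gene pair. Col4a1 and Col4a2, the chains of the most widespread type IV trimer, and Col4a3 and Col4a4, which join Col4a5 in another trimer, were lower in tumors, while Col4a5 and Col4a6, partners in the trimer found under many epithelia, were higher. Col4a1 had a lowest, median and highest level of 362, 959.5 and 1658 CPM in WT glands, 292, 907 and 1318 CPM in KO glands, 52.9, 77.3 and 332 CPM in WT tumors, and 78.3, 137 and 298 CPM in KO tumors. Every WT tumor lay below every WT gland, and in KO mice only the lowest gland, week 12 replicate 2 at 292 CPM, and the highest tumor, week 8 replicate 1 at 298 CPM, crossed. The log2 fold change of Col4a1 was −3.39 ± 0.28 (SE) in WT mice (adjusted p = 3.02e-09) and −2.54 ± 0.27 in KO mice (adjusted p = 3.72e-07). Col4a2 ran from 174 to 696 CPM in WT glands (median 417) and from 31.4 to 132 CPM in WT tumors (median 41.6), with 147 to 646 CPM in KO glands (median 409.8) and 51.6 to 137.5 CPM in KO tumors (median 75.4). Tumors and glands did not overlap in either genotype. Its changes were −3.15 ± 0.23 (adjusted p = 5.76e-10) and −2.35 ± 0.22 (adjusted p = 6.6e-08).

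Col4a3 and Col4a4 were read at a small part of these levels. Col4a3 had medians of 2.84 CPM in WT glands, 2.26 in KO glands, 0.838 in WT tumors and 1.15 in KO tumors. Its log2 fold changes were −1.93 ± 0.34 (adjusted p = 0.00013) in WT mice and −1.07 ± 0.34 (adjusted p = 0.0367) in KO mice. Col4a4 changed by −1.79 ± 0.26 (adjusted p = 1.16e-05) and −0.83 ± 0.26 (adjusted p = 0.0353). Without the 3 glands above 50 CPM of fibroblast markers neither gene was called in KO mice, and the other 6 basement membrane collagens kept their calls in both genotypes. Col4a5 went the other way, from 48.1 to 99.2 CPM in WT glands (median 74.1) and from 90.1 to 230 CPM in WT tumors (median 118), and from 25.9 to 89.5 CPM in KO glands (median 62.7) and 89.7 to 163 CPM in KO tumors (median 109). Every KO tumor lay above every KO gland, at the edge by 89.7 against 89.5 CPM, and in WT mice 2 tumors of week 6, at 90.1 and 94.8 CPM, lay below the highest gland. The changes were 0.76 ± 0.20 (adjusted p = 0.00848) and 0.96 ± 0.21 (adjusted p = 0.00153). Col4a6 had medians of 48.7 and 74.2 CPM in WT glands and tumors and of 45.2 and 61.9 CPM in KO glands and tumors, with ranges that overlapped in both, and its changes of 0.63 ± 0.24 (adjusted p = 0.0709) and 0.71 ± 0.24 (adjusted p = 0.0522) were the nearest to the threshold of the class.

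The balance of the chains was read as the sum of Col4a1 and Col4a2 over the sum of Col4a5 and Col4a6, each in CPM per kb of exon. It ran from 4.09 to 20.4 in WT glands (median 11.4), from 8.25 to 16.2 in KO glands (median 12.33), from 0.343 to 3.43 in WT tumors (median 0.589) and from 0.517 to 2.84 in KO tumors (median 1.21). All 14 glands lay above all 19 tumors. Of the WT tumors, the 3 at week 6 had the highest ratios (1.66, 1.199 and 3.43) and the other 7 lay between 0.343 and 0.623.

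**Figure D2:**
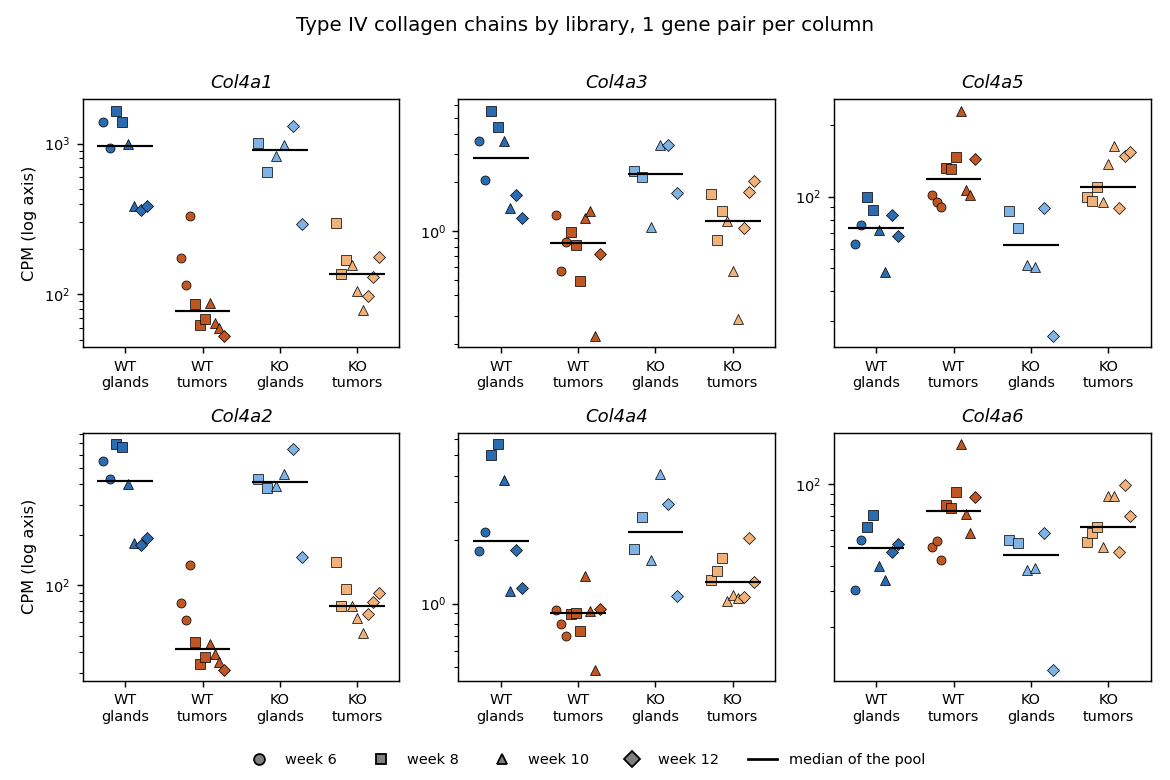
Level of the 6 type IV collagen genes in each library in CPM on a log axis, by genotype and tissue, with the marker shape giving the week and a black line at the median of each set of libraries. Col4a1 to Col4a4 sit lower in tumors (for Col4a2 with no overlap in either genotype), and Col4a5 and Col4a6 sit higher.

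The multiplexins fell as well. Col18a1, the precursor of endostatin, had lowest, median and highest levels of 285, 483 and 904 CPM in WT glands, 351, 487 and 714 CPM in KO glands, 87.1, 233.5 and 390.5 CPM in WT tumors and 155, 259 and 373.5 CPM in KO tumors. Tumors were lower with some overlap in each genotype. The changes were −1.10 ± 0.22 (adjusted p = 0.000595) in WT mice and −0.97 ± 0.22 (adjusted p = 0.00261) in KO mice. Col15a1, which links basement membranes to the fibrils beside them, was read at 0.144 to 7.49 CPM over all libraries and changed by −2.48 ± 0.40 (adjusted p = 4.43e-05) and −1.54 ± 0.42 (adjusted p = 0.012).

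Col17a1 and Col7a1, both of the junction that ties basal epithelial cells to the stroma, were lower in tumors. Col17a1 is the transmembrane collagen of hemidesmosomes. It ran from 321 to 1282 CPM in WT glands (median 759), from 296 to 1047 CPM in KO glands (median 819), from 32.5 to 222 CPM in WT tumors (median 113) and from 49.8 to 251 CPM in KO tumors (median 107.5). No tumor reached any gland of its genotype. The log2 fold changes were −2.73 ± 0.33 (adjusted p = 6.52e-07) and −2.60 ± 0.32 (adjusted p = 2.34e-06). Col7a1 builds the anchoring fibrils on the stromal side. It ran from 736 to 1143 CPM in WT glands (median 902), 559 to 887 CPM in KO glands (median 807), 166 to 583 CPM in WT tumors (median 360) and 292 to 546 CPM in KO tumors (median 367). Again no tumor reached a gland, although the change was smaller, at −1.31 ± 0.16 (adjusted p = 1.08e-06) and −0.93 ± 0.16 (adjusted p = 0.00015).

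Counted over all 43 collagens, tumors lay wholly below glands in WT mice for 7 collagens (Col17a1, Col7a1, Col5a2, Col4a1, Col4a2, Col6a4 and Col8a1), or 16.3%, against 2.25% of all genes, and wholly above for Col9a1 alone, 2.33% against 1.35%. In KO mice tumors lay wholly below for Col17a1, Col7a1 and Col4a2 (6.98% against 1.44%) and wholly above for Col9a1 and Col4a5 (4.65% against 1.99%).

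Among the fibrillar collagens, the type V chains Col5a1 and Col5a2 fell in both genotypes, and no chain of types I and III was called in both. Col5a2, a chain of the heterotrimer that nucleates collagen I fibrils, was the most abundant fibrillar collagen. It ran from 145 to 642 CPM in WT glands (median 320.5), 69.1 to 356 CPM in KO glands (median 279), 14.6 to 74.3 CPM in WT tumors (median 32.2) and 5.53 to 119 CPM in KO tumors (median 54.5). The WT ranges were apart and the KO ranges overlapped. The changes were −3.19 ± 0.46 (adjusted p = 8.98e-06) and −2.27 ± 0.45 (adjusted p = 0.000659). Col5a1, its partner in the same trimer, had medians of 49.9 CPM in WT glands, 43.0 in KO glands, 9.33 in WT tumors and 18.7 in KO tumors. It fell by 2.34 ± 0.33 (adjusted p = 6.49e-06) and 1.55 ± 0.32 (adjusted p = 0.00119) on the log2 scale. Col11a1, a chain of the related type XI fibrils, ran from 11.7 to 92.1 CPM in WT glands and 13.3 to 111 CPM in WT tumors, with changes of −0.17 ± 0.39 (adjusted p = 0.902) in WT mice and 0.00 ± 0.39 (adjusted p = 1) in KO mice. Col24a1, a minor fibrillar chain, had medians from 0.0476 CPM in KO glands to 0.311 CPM in WT tumors. It was called higher in KO tumors (1.69 ± 0.51, adjusted p = 0.0257) but not in WT tumors (0.97 ± 0.42, adjusted p = 0.126). Without the 3 glands above 50 CPM of fibroblast markers it was called in both genotypes, at 1.52 in WT mice and 3.435 in KO mice.

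The levels of Col1a1 and Col1a2, the chains of type I collagen, and Col3a1, the chain of type III, moved with the fibroblast markers of single libraries. Col1a1 had medians of 9.66 CPM in WT glands, 6.57 in KO glands, 8.68 in WT tumors and 11.5 in KO tumors, but reached 60.6 CPM in WT gland week 6 replicate 2 and 142.5 CPM in WT gland week 8 replicate 2. Col1a2 stood at 65.6 and 172 CPM and Col3a1 at 53.8 and 305 CPM in those same glands, where the median of Col3a1 over all WT glands was 0.960 CPM. In KO gland week 10 replicate 1, with a fibroblast marker sum of 49.1 CPM, Col3a1 was 30.4 CPM, and in KO gland week 12 replicate 1, with a sum of 54.0 CPM of which Thy1 gave 30.5, Col3a1 was 0.249 CPM. Col1a1 was called lower in WT tumors (−1.56 ± 0.48, adjusted p = 0.023), as was Col1a2 (−1.73 ± 0.67, adjusted p = 0.0748), and neither was called in KO mice (0.33 ± 0.50 and −0.41 ± 0.68). Col3a1 was called in neither genotype, at −1.83 ± 0.95 in WT mice and 3.45 ± 1.38 in KO mice. Without the 3 glands above 50 CPM of fibroblast markers, the calls of Col1a1 and Col1a2 were lost and Col3a1 was called higher in tumors of both genotypes, by 3.74 (adjusted p = 0.0562) in WT mice and 3.54 (adjusted p = 0.0691) in KO mice. In the same fits 4 fibrillar collagens were lower in WT tumors (Col2a1, Col5a1, Col5a2 and Col27a1) in place of 7, and 2 (Col5a1 and Col5a2) in KO tumors. Col3a1, Col1a1 and Col1a2 were singled out after their values were seen.

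**Figure D3:**
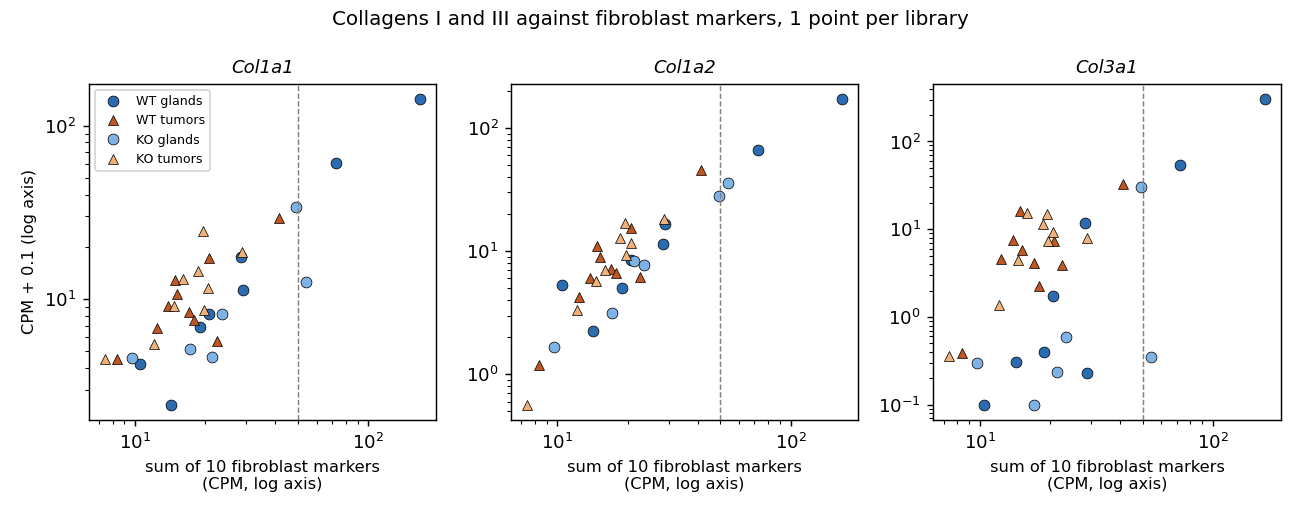
Col1a1, Col1a2 and Col3a1 (CPM + 0.1) in each library against the summed CPM of 10 fibroblast markers, both on log axes, colored by genotype and tissue with a dashed line at 50 CPM. The 2 WT glands with the highest marker sums, 72.6 and 167 CPM, hold the highest values of all 3 genes.

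Outside these classes Col9a1 showed the largest rise. It encodes a chain of type IX, a FACIT collagen best known from cartilage and the eye. It was near the floor in glands, from 0.177 to 1.08 CPM in WT glands (median 0.632) and 0.193 to 2.22 CPM in KO glands (median 0.480), and ran from 2.52 to 75.5 CPM in WT tumors (median 13.6) and 2.25 to 31.3 CPM in KO tumors (median 11.04). Every tumor lay above every gland, with the KO tumor at 2.25 CPM (week 12 replicate 1) and the KO gland at 2.22 CPM (week 10 replicate 1) almost touching. The changes were 4.61 ± 0.61 (adjusted p = 2.88e-06) in WT mice and 4.42 ± 0.62 (adjusted p = 1.26e-05) in KO mice. Without the 3 glands above 50 CPM of fibroblast markers the changes of Col9a1 were 5.44 and 4.765. Its partners in the type IX trimer did not pass the test with all libraries. Col9a2 changed by 0.47 ± 0.36 and 0.65 ± 0.36 and Col9a3 by 0.62 ± 0.33 and 0.83 ± 0.33, in WT and KO mice. In fits that left out the 3 glands above 50 CPM of fibroblast markers Col9a3 was called higher in both (1.01, adjusted p = 0.071, and 1.26, adjusted p = 0.0147) and Col9a2 in KO mice (1.499, adjusted p = 0.00353). Col25a1, a transmembrane collagen found in neurons and developing muscle, was the other collagen of these classes called higher in both genotypes, with medians of 0.865 CPM in WT glands, 0.892 in KO glands, 2.54 in WT tumors and 3.24 in KO tumors. Its highest levels were 21.3 CPM in WT tumor week 12 replicate 1 and 18.6 CPM in WT tumor week 10 replicate 1, the latter also the highest library for Col9a1, Col4a5, Col16a1 and Col3a1 among WT tumors. The changes were 1.86 ± 0.54 (adjusted p = 0.0151) and 1.98 ± 0.55 (adjusted p = 0.0142). Without the 3 glands they were 2.2 and 3.06.

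**Figure D4:**
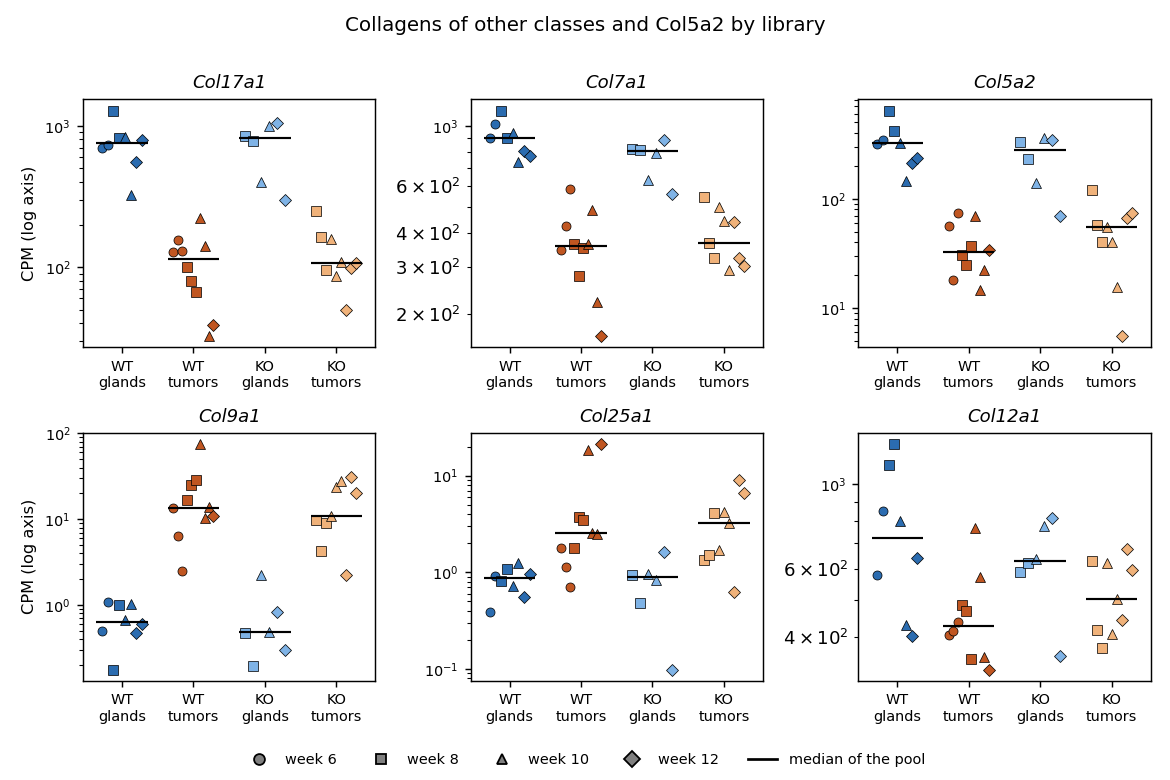
Level of Col17a1, Col7a1, Col5a2, Col9a1, Col25a1 and Col12a1 in each library in CPM on a log axis, by genotype and tissue, with the marker shape giving the week and a black line at the median. Col17a1 and Col7a1 tumors sit wholly below the glands of their genotype, Col9a1 tumors wholly above, and Col12a1 overlaps.

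With all libraries in the fit, Col14a1, a FACIT collagen that regulates fibril growth, fell most on the log2 scale of the 43 collagens counted. It went from 2.61 to 26.7 CPM in WT glands (median 7.81) to 0.393 to 3.14 CPM in WT tumors (median 0.578), and from 2.32 to 19.8 CPM in KO glands (median 6.98) to 0.263 to 3.25 CPM in KO tumors (median 0.798). Glands and tumors overlapped only at their edges. The changes were −3.81 ± 0.49 (adjusted p = 1.75e-06) and −3.12 ± 0.48 (adjusted p = 3.28e-05). Without the 3 glands above 50 CPM of fibroblast markers they were −3.60 and −2.49, and Col6a4 fell more in KO mice. Col6a4, a long type VI chain, was low throughout, from 0.345 to 1.60 CPM in glands and from 0 to 0.434 CPM in tumors, where a library at 0 reads allows up to 3 reads, and changed by −3.12 ± 0.51 (adjusted p = 5.58e-05) and −3.00 ± 0.51 (adjusted p = 0.000123). Of the 6 type VI chains, which form beaded filaments, 4 were called lower in WT mice and 3 in KO mice, where 9.53% and 5.44% of all genes were. The 3 classical chains gave −2.03 and −1.97 for Col6a1, −1.67 and −1.52 for Col6a2, and −1.95 and −0.75 for Col6a3, in WT and KO mice, all called but the last. Without the 3 glands above 50 CPM of fibroblast markers, Col6a3 stood at 0.69 (adjusted p = 0.614) in WT mice and −0.31 in KO mice and was not called, Col6a2 was called in neither genotype (−0.91 and −1.02), and Col6a1 kept its call in WT mice (−1.57, adjusted p = 0.0695) and not in KO mice (−1.24, adjusted p = 0.201), while Col6a4 kept both (−3.00 and −2.61). Col12a1, a fibril-associated collagen with the highest mean CPM over all libraries and, by median, the highest level in tumors but not in glands, ran from 401 to 1271 CPM in WT glands (median 723), 357 to 818 CPM in KO glands (median 629), 329 to 768 CPM in WT tumors (median 426) and 374 to 675 CPM in KO tumors (median 501). All 4 ranges overlapped, and the change was called in WT mice (−0.79 ± 0.18, adjusted p = 0.00284) and not in KO mice (−0.29 ± 0.19, adjusted p = 0.406). Col16a1, another FACIT collagen, had medians of 132, 118, 77.7 and 113 CPM in WT glands, KO glands, WT tumors and KO tumors, and was called in neither genotype (−0.78 ± 0.35 and −0.46 ± 0.35). The short-chain collagen Col8a1 was lower in both (−1.98 and −1.01) and its partner Col8a2 was called in neither (0.02 and 0.49), but was called higher in KO mice without the 3 glands above 50 CPM of fibroblast markers (0.96, adjusted p = 0.0957). Of the 11 collagens with a mean under 1 CPM, which include Col6a5, Col6a6, Col10a1, Col13a1, Col19a1, Col22a1 and Col28a1, those 7 were called in neither genotype, and at their read depth differences were not resolved.

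Week by week the calls were fewer. In WT mice 12 collagens were called at week 6 (11 lower, 1 higher, against 3.53% and 2.32% of all genes, 5.86% together), 20 at week 8 (19 and 1, against 5.84% and 3.35%, 9.19% together) and 15 at week 10 (11 and 4, against 3.67% and 2.46%, 6.13% together). In KO mice there were 5 at week 8 (4 and 1, against 1.38% and 1.11%, 2.49% together), 11 at week 10 (9 and 2, against 3.09% and 2.57%, 5.66% together) and 10 at week 12 (8 and 2, against 2.92% and 3.19%, 6.11% together). Leaving out the 3 glands above 50 CPM of fibroblast markers left 1 WT gland at week 6 and 1 at week 8. Fewer collagens and a smaller share of all genes were then called at both weeks. Col17a1, Col4a1 and Col4a2 were called lower in all 6 weekly comparisons, 6.98% of the collagens where 0.783% of all genes were, and Col9a1 was called higher in all 6, 2.33% against 0.43%. The weekly log2 changes of Col4a1 were −2.48, −4.40 and −3.27 at weeks 6, 8 and 10 in WT mice and −2.03, −3.00 and −2.58 at weeks 8, 10 and 12 in KO mice. Those of Col17a1 were −2.37, −3.68 and −2.14, and −2.27, −2.57 and −2.98. Those of Col9a1 were 3.24, 5.29 and 5.31, and 4.40, 3.96 and 4.89. When those 3 glands were left out, 1 KO gland remained at week 12, so the counts of that fit are not given there. Neither Col17a1, Col4a1 nor Col4a2 kept its call at week 12 in KO mice. The remaining gland, replicate 2, had a ribosomal RNA share of 18.8%. It held the lowest Col4a1 (292 CPM), Col4a2 (147 CPM) and Col17a1 (296 CPM) of the 14 glands. Its basal marker sum was 5561 CPM, against 19725 CPM in the KO gland left out. The part of these in the lost calls was not tested.

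Among the collagens counted, which leave out Col5a3, none was called between weeks within one tissue and genotype. From week 6 to week 10 in WT tumors, 10 collagens had an unadjusted p below 0.05, as had 8.55% of all genes, and DESeq2 called 3 collagens and 0.693% of all genes, where edgeR called 0.011% of all genes. Col4a1 changed by −1.55 ± 0.43 (adjusted p = 0.424) and Col4a2 by −1.21 ± 0.35 (adjusted p = 0.438), and Col25a1 by 2.70 ± 0.81 (adjusted p = 0.456) and Col9a1 by 2.14 ± 0.77 (adjusted p = 0.501). Their levels at week 6 were 175, 116 and 332 CPM for Col4a1 and 13.4, 6.45 and 2.52 CPM for Col9a1, and at week 10 they were 88.2, 64.7 and 60.0 CPM and 75.5, 10.4 and 13.8 CPM. The Col4a1 values of the weeks were apart and the Col9a1 values were not. From week 8 to week 12 in KO tumors 2 collagens had an unadjusted p below 0.05, against 7.88% of all genes, DESeq2 called 1 and 0.342% of all genes, and edgeR called 0% of all genes. From week 6 to week 12 in WT glands 11 collagens had an unadjusted p below 0.05, against 8.2% of all genes, and DESeq2 called 5 and 1.87% of all genes, with 0.35% called by edgeR, 0.151% lower. Col4a1 was 1387 and 932 CPM at week 6 and 362 and 384.5 CPM at week 12, a change of −1.64 ± 0.53 (adjusted p = 0.299). From week 8 to week 12 in KO glands none had an unadjusted p below 0.05, against 9.27% of all genes, DESeq2 called 0 and 2.94% of all genes, and 0.567% of all genes were called by edgeR. The collagens in this account of weeks were singled out after their values were seen.

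Between genotypes, 1 collagen was called in tumors and 1 in glands. Under several alternatives, listed below with their shares of all genes, Col4a1 was called in tumors as well. Averaged over weeks 8 and 10, Col4a2 was lower in WT than in KO tumors, where 0.37% of all genes were called lower and 0.142% higher. It stood at 45.6, 33.8 and 37.1 CPM at week 8 and 44.5, 38.8 and 35.0 CPM at week 10 in WT tumors, and at 137.5, 75.4 and 94.7 CPM and 75.0, 63.8 and 51.6 CPM in KO tumors. The 6 WT values lay below the 6 KO values, and the change was −1.04 ± 0.25 (adjusted p = 0.0666). Over the 12 fits that left out 1 of these tumors the change ran from −0.91 to −1.12, and the call was lost in 9 of them. The call held with the ribosomal RNA share as a covariate, at −1.17. Col4a1, its partner, stood at 85.9, 62.2, 68.7, 88.2, 64.7 and 60.0 CPM in WT tumors and 298, 137, 169, 157, 105 and 78.3 CPM in KO tumors over the same weeks, with a change of −1.08 ± 0.30 (95% interval −1.67 to −0.49, adjusted p = 0.135). The values overlapped between the 2 highest WT tumors and the lowest KO tumor. The paper takes hyperplasia from week 6 in WT tumors and from week 8 in KO tumors. Tumors of one week thus differ in stage as well as genotype, and the 2 cannot be told apart. At week 6 Col4a2 stood at 78.5, 62.5 and 132 CPM in WT tumors, which overlapped the KO tumors of week 8.

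In glands, averaged over weeks 8, 10 and 12, Col20a1, a FACIT collagen known from the cornea, was higher in WT than in KO mice, where 0.504% of all genes were called higher and 0.402% lower. It stood at 3.61 and 5.82, 3.40 and 7.24, and 3.01 and 5.23 CPM in WT glands of the 3 weeks and at 1.47 and 2.45, 1.74 and 2.09, and 1.47 and 0.689 CPM in KO glands. All WT values lay above all KO values, with a change of 1.55 ± 0.33 (adjusted p = 0.027). The call was lost with the ribosomal RNA share as a covariate (1.38), a fit in which the share of all genes called fell from 0.906% to 0.142%. It was also lost with only the groups compared (1.54, with 0.243% of all genes called), and without WT gland week 8 replicate 2 (1.42) or WT gland week 10 replicate 2 (1.34). The ribosomal RNA share had a median of 6.20% in KO glands and 0.0116% in WT glands. For the 3 collagens with the highest medians per kb in glands the 95% intervals of the WT over KO change were −0.79 to 0.38 for Col4a1, −0.66 to 0.72 for Col17a1 and −0.13 to 0.58 for Col7a1.

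Whether the tumor effect itself differed between genotypes was tested at weeks 8 and 10, the weeks with replicates in all 4 groups. Tumor stage differs between the genotypes at those weeks, so stage and genotype cannot be told apart here either. None of the 43 collagens was called, 5 had an unadjusted p below 0.05, against 5.58% of all genes, and DESeq2 called 0 and 0.203% of all genes. By edgeR 0.00548% of all genes were called, 0.00274% in each direction. The difference, WT minus KO, was −1.32 ± 0.47 for Col4a1 (95% interval −2.25 to −0.39, adjusted p = 0.83) and −1.15 ± 0.39 for Col4a2 (−1.90 to −0.39, adjusted p = 0.813). It was −0.49 ± 0.56 for Col17a1 (−1.59 to 0.61), −0.53 ± 0.28 for Col7a1 (−1.09 to 0.03) and 1.12 ± 0.95 for Col9a1 (−0.75 to 2.99). So the larger number of collagens called lower in WT mice, 25 against 15, was not shown to differ between genotypes, and the 2 averages cover different weeks.

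Col5a3, a further chain of type V collagen, was taken up because its level was high in WT glands, and its values are a description. In WT glands it stood at 75.0 and 304.5 CPM at week 6, 39.1 and 236 CPM at week 8, 80.9 and 221 CPM at week 10, and 14.1 and 13.5 CPM at week 12. In KO glands it stood at 9.70 and 6.45 CPM at week 8, 22.7 and 27.2 CPM at week 10, and 21.1 and 22.9 CPM at week 12. The 6 WT glands of weeks 6 to 10 lay above all KO glands, and the 2 of week 12 lay among them. WT tumors ran from 1.18 to 14.7 CPM (median 8.17) and KO tumors from 3.21 to 13.5 CPM (median 5.15). At weeks 6, 8 and 10 replicate 2 was well above replicate 1 in WT glands, with CPM differences wider than the whole range of the tumors, although the WT tumors spanned a larger ratio, 12.4 from lowest to highest. The high glands at weeks 6 and 8 were those above 50 CPM of fibroblast markers, but replicate 2 at week 10 (221 CPM) and replicate 1 at weeks 6 and 10 (75.0 and 80.9 CPM) were not among those glands. In order of median, WT glands came first, then KO glands, and then the tumors of both genotypes, whose ranges overlapped.

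Of 12266 protein-coding genes with a mean of at least 1 CPM, those whose log2 CPM ran most alike with Col5a3 over the 33 libraries were Add2 (Pearson's r = 0.944), Lratd1 (0.913), Prag1 (0.912), Ctnnbl1 (0.912) and Chst8 (0.906). These are correlations over libraries that share tissue and genotype and are given as a description. Add2 encodes a subunit of adducin, of the membrane skeleton, and had medians of 5.03 CPM in WT glands, 1.33 in KO glands, 0.525 in WT tumors and 0.357 in KO tumors. Chst8, a sulfotransferase, had medians of 4.79, 0.856, 0.577 and 0.378 CPM in the same order. Prag1, a pseudokinase, was read at higher levels, with medians of 175.5, 125, 44.1 and 47.7 CPM.

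**Figure D5:**
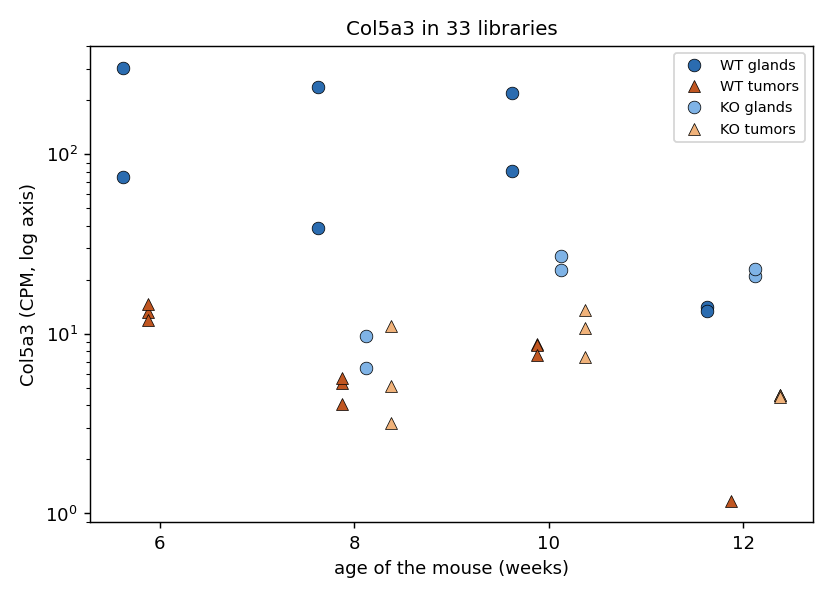
Col5a3 in each library in CPM on a log axis against the age of the mouse in weeks, colored by genotype and tissue, with circles for glands and triangles for tumors. The 6 WT glands of weeks 6, 8 and 10 lie between 39.1 and 304.5 CPM, above all KO glands, and the 2 WT glands of week 12 lie at 13.5 and 14.1 CPM.

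Genes that make and mature collagen were measured beside the collagens. Of 35 genes for hydroxylation, glycosylation, folding, propeptide cleavage and crosslinking, 17 were called lower and 5 higher in WT tumors (median −0.66), against 9.53% and 6.21% of all genes, and 13 lower and 3 higher in KO tumors (median −0.47), against 5.44% and 5.16%. Fkbp10, a collagen chaperone of the endoplasmic reticulum, fell from medians of 65.9 CPM in WT glands and 60.0 in KO glands to 7.37 and 9.03 in the tumors of the same genotypes (−3.15 ± 0.39 and −2.89 ± 0.38). Adamts2, which cleaves amino-terminal propeptides of fibrillar collagens, fell by 2.30 ± 0.37 and 1.83 ± 0.37 on the log2 scale, and P3h4, a partner of the prolyl and lysyl hydroxylases, by 1.77 ± 0.28 and 1.69 ± 0.28. Colgalt2, a collagen galactosyltransferase, changed by −2.41 ± 0.49 and −1.24 ± 0.49, while its relative Colgalt1 rose by 0.79 ± 0.08 and 0.65 ± 0.08. Plod2, a lysyl hydroxylase of the telopeptides, rose by 0.64 ± 0.22 and 0.60 ± 0.22. Called higher in WT tumors alone were P3h2 (0.92 ± 0.22 against −0.11 ± 0.21 in KO mice), Adamts14 (0.84 ± 0.31 against 0.57 ± 0.32) and the lysyl oxidase relative Loxl4 (0.81 ± 0.30 against 0.08 ± 0.29), and Creb3l1, a transcription factor of secretory cells, was called in KO tumors alone (1.04 ± 0.26 against 0.58 ± 0.25 in WT mice). The difference of the tumor effect between genotypes, tested at weeks 8 and 10, was not called for any gene of this list.

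Of 11 receptors and uptake receptors of collagen, 5 were called lower in WT tumors and none higher, against 9.53% and 6.21% of all genes, and 3 lower and 1 higher in KO tumors, against 5.44% and 5.16%. Adgrg1, an adhesion receptor that binds type III collagen, fell from medians of 173 CPM in WT glands and 207 CPM in KO glands to 32.0 and 44.6 CPM in tumors (−2.46 ± 0.24 and −2.16 ± 0.24). The integrin chains Itga1 and Itga2, which bind collagens IV and I, changed by −1.81 ± 0.23 and −1.47 ± 0.23, and by −0.78 ± 0.22 and −0.59 ± 0.22. Ddr2, a tyrosine kinase receptor for fibrillar collagen, was lower in WT tumors (−1.90 ± 0.28) and not called in KO tumors (−0.14 ± 0.28). Itga11, another collagen-binding integrin chain, was called higher in KO tumors (1.02 ± 0.38) and not in WT tumors (0.73 ± 0.38). Between WT and KO tumors and between WT and KO glands no gene of either list was called.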

How the data were processed

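RNA-seq libraries of GFP+ mammary cells from 33 mice were used, 1 library per mouse. The authors depleted ribosomal RNA, aligned stranded reads with HISAT to GRCm38 and Gencode M16, took out PCR duplicates (Picard 1.128) and ran HTSeq for the reads of each gene, and the deposited table holds these raw counts. A deposited table of normalized signal (counts divided by size factors in DESeq2 under R 3.6.2) served only to recover reads for an alternative. It gave whole reads for 100% of 35323 rows (tolerance 1e-06), and of the 34994 also held by the count table, between 76.7% and 88.7% per library were equal to it (median 83.2%). Whether the counting used strand is not given in the sources used here, so genes that overlap, such as Col4a1 and Col4a2, may share reads. The 111 rows that name no gene (0.0778% of reads) were left out.

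All 33 libraries entered 1 fit in edgeR 4.0.16 (R 4.3.3, TMM scaling, quasi-likelihood) with a coefficient for each genotype, tissue and week, over genes with at least 10 reads summed. Contrasts were taken per week and averaged over weeks, and p-values were adjusted over all 36527 genes by the method of Benjamini and Hochberg. Standard errors are the log2 fold change over the square root of F, and 95% intervals are approximate. CPM are TMM-scaled, lengths are union exons of Gencode M21, and depth limits precision by counting error for genes under 1 CPM. Between 28419983 and 130981596 reads per library were counted. The test was tested on simulated counts. Alternatives were DESeq2 1.42.0, its size factors, no or a stricter filter (1 CPM in 2 libraries), a replicate block, only the groups compared, recovered reads and leaving out each library. The ribosomal RNA share as a covariate was run in the comparisons between genotypes alone, and not for tumors against glands or between weeks. Fits without the 3 glands above 50 CPM of fibroblast markers were added after seeing the data.

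The collagens, the lists and the tests were chosen with earlier results of these data known. Values are given for the 4 most abundant collagens of each class, the 4 called collagens of largest change in each direction in each averaged contrast, Col5a3 with the 5 genes most like it, and the 3 called genes of largest change in each direction of the synthesis and receptor lists. Outside this rule, values are also given for Col1a1, Col1a2, Col3a1, Col4a3, Col4a4, Col15a1, Col6a1, Col6a2, Col6a3, Col8a1, Col8a2, Col9a2 and Col9a3. The other collagens are given as counts or named as members of a count.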

Additional observations from a re-analysis of the deposited data

Results flagged for a closer look

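In the 4 sets of libraries of one genotype and tissue (10 WT tumors, 9 KO tumors, 8 WT glands and 6 KO glands), 7 of 76 tests on named collagens found a highest or lowest library far from the rest of its set by Dixon's criterion, where 3.8 would be flagged by chance. Among WT tumors, week 10 replicate 1 was the highest for Col4a5, at 230 CPM, and for Col16a1, at 323 CPM. Week 12 replicate 1, which has no replicate, was the lowest WT tumor for Col5a3, at 1.18 CPM, and week 6 replicate 2 the lowest for Col6a4, at 0 CPM. Among KO glands, week 12 replicate 2 was the lowest for Col4a2, at 147 CPM, and for Col4a6, at 12.5 CPM. Among WT glands, week 8 replicate 1 was the lowest for Col9a1, at 0.177 CPM.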

How the results depend on the processing

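The counts of called collagens in the averages over weeks were within 1.5 times of 29 in WT mice and 20 in KO mice under every alternative run, with 23 to 30 (12.9% and 15.5% of all genes) and 14 to 23 (8.84% and 11.2%) when 1 library was left out. Counts by week moved more. The shares of all genes called in each fit stand in brackets. DESeq2 gave 8 at week 8 (4.64%) and 16 at week 12 (7.95%) in KO mice. Without a filter on low counts there were 23 at week 6 in WT mice (5.79%) and 11 and 21 at weeks 8 and 10 in KO mice (3.26% and 5.43%). With only the groups compared, they were 21 and 5 at weeks 6 and 10 in WT mice (12.7% and 4.12%) and 10, 21 and 0 at weeks 8, 10 and 12 in KO mice (6%, 13.3% and 0%). Fits without the 3 glands above 50 CPM of fibroblast markers left 1 WT gland at week 6, 1 at week 8 and 1 KO gland at week 12. Fewer collagens and fewer of all genes were called at those WT weeks, and more of both between weeks 12 and 8 in KO glands. Between WT and KO tumors 2 were called, Col4a1 with Col4a2, under DESeq2, no filter, a stricter filter, the replicate block, the ribosomal RNA covariate, only the groups compared and without the 3 glands (0.318% with the covariate to 2.66% with the stricter filter). Between WT and KO glands 0 were called with that covariate (0.142%) or with only the groups compared (0.243%). The difference of tumor effects gave 2 without a filter (0.279%). Week 10 against week 6 in WT tumors gave 3 with DESeq2 (0.693%) and 8 without a filter (0.889%), week 12 against week 8 in KO tumors 1 with each (0.342% and 0.356%), and week 12 against week 6 in WT glands 5 with DESeq2 (1.87%), 8 without a filter (558 genes) and 4 with only the groups compared (0.677%). Where a cause is not part of the alternative's construction, it was not tested.

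Leaving out 1 library gave 2 to 10 calls at week 6 (2 without WT gland week 6 replicate 2), 13 to 22 at week 8 (13 without WT gland week 8 replicate 2) and 6 to 11 at week 10 in WT mice (6 without WT gland week 10 replicate 1). All genes were called at 1.37% and 4.99%, 6.11% and 6.82%, and 3.35% and 5.68% in the fits with the fewest and the most collagens called. In KO mice it gave 0 to 7 at week 8 (0 without KO gland week 8 replicate 1), 3 to 11 at week 10 (3 without KO gland week 10 replicate 2) and 5 to 10 at week 12 (5 without KO tumor week 12 replicate 2), with 0.125% and 2.63%, 1.9% and 5.43%, and 3.97% and 7.88% of all genes. It gave 0 to 1 between WT and KO tumors (0.139% to 1.62% of all genes over these fits), 0 to 3 between WT and KO glands (0.165% to 2.13%) and 0 to 3 between weeks in KO glands (0% to 5.56%; both 3 without KO gland week 12 replicate 1), 0 to 1 between weeks in WT tumors (0% to 1.03%), and 0 to 0 for the difference of tumor effects and for the weeks in KO tumors and WT glands (at most 0.592% of all genes). These fits kept the dispersion trend of the full fit, and a lone gland left in a week was assumed to vary like the other groups. Of 1537 values of named collagens under alternatives, 1375 kept their side of the threshold, 162 were no longer called and 0 reversed. In the averages over weeks these included Col4a6 (0.45 to 0.67 in WT mice, 0.49 to 0.72 in KO mice) and Col24a1 in KO mice without KO gland week 10 replicate 2 (1.51).

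Deviations of same-numbered tumors and glands from their group means had correlations from −0.591 to 0.53, with no common sign, so the numbers were not taken to pair the mice. The highest, 0.5 and 0.53, were those of KO week 8. There the replicate 2 libraries held 12.0% (tumor) and 15.7% (gland) ribosomal RNA, and the replicate 1 libraries 0.00572% and 0.0224%. Whether this share is the reason was not tested. A replicate block changed 2 of 88 calls of named collagens, and gave 12, 17 and 13 called collagens at weeks 6, 8 and 10 in WT mice (5.41%, 8.16% and 5.57% of all genes), 5, 10 and 8 at weeks 8, 10 and 12 in KO mice (2.33%, 5.06% and 5.33%), 25 and 20 in the averages (13.8% and 9.76%) and 2 between WT and KO tumors (0.652%).

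With 2 glands in a week, weekly calls rest on few mice. For collagens under 1 CPM counting error limits precision, and whether depth is why some were not called was not tested. Basal marker levels and ribosomal RNA shares moved with tissue and genotype, and litter, sort and library batches are not given in the sources used here.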

Other observations

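Other cell type markers were read with the collagens, from lists of 10 or fewer genes. Of the fibroblast markers 7 of 10 were called lower in WT tumors and 1, Thy1, in KO tumors, where 9.53% and 5.44% of all genes were called lower (6.21% and 5.16% higher). Of the 7, Mfap5 had a higher median in WT tumors (0.435 CPM) than in WT glands (0.145 CPM), as had Pdgfra (8.50 against 4.01 CPM) and Lum (0.207 against 0.0446 CPM), which were not called. Of the luminal markers 5 were lower and 1 higher in WT tumors, and 4 lower and 1 higher in KO tumors, and their summed level had medians of 8045 CPM in WT glands, 7359 in KO glands, 8597 in WT tumors and 7432 in KO tumors. Of the pericyte markers 3 were lower and 1 higher in WT tumors, and 1 and 1 in KO tumors, with median sums of 86.7, 57.3, 37.7 and 35.3 CPM in the same order. Endothelial markers gave 5 lower in WT tumors and 0 called in KO tumors, with sums of at most 19.9 CPM, macrophage markers 4 lower in WT tumors and 2 higher in KO tumors, with sums of at most 53.8 CPM, and adipocyte markers 2 lower and 1 higher in WT tumors and 1 higher in KO tumors. The part of these cells in the collagen levels was not tested.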
